A study of Mus musculus with 10 samples.

Results

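Enzymes that add methyl groups to lysines of histone tails or remove them were followed in mouse oocytes with and without basonuclin (Bnc1). The genes were chosen by their symbols, as those of the Kmt, Setd, Suv39h, Ehmt, Nsd, Dot1l, Prdm, Smyd and Kdm families in the platform annotation and not by a measured threshold. The pattern found 58 genes among 18194 with a probe set. For genes with several probe sets the one with the highest mean over the 10 arrays was used. Of the 58, 45 were tested because that probe set was above a log2 intensity of 5 in at least 4 arrays.

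RNA came from fully grown oocytes, which rest at the germinal vesicle stage, and each of the 10 samples held about 50 oocytes of 1 mouse and filled 1 array. The labels give about 15 micrograms of total RNA as input for labelling, which is more than 50 oocytes hold, and they name no amplification step. The 4 controls were non-transgenic mice, with replicate numbers 1, 2, 7 and 8 in the labels. The 6 others carried a transgene that produces RNA interference against basonuclin in oocytes, with replicate numbers 4, 5, 6, 11, 12 and 13. Strain, age and the promoter of the transgene are not given in the sources used here. In such bulk samples fewer cells with an mRNA and less of it per cell cannot be told apart. Per array the median intensity was 17.5 to 20.1, and 40.1% to 40.9% of probe sets were above the level. The mean rank correlation of an array with the others of its group was 0.991 to 0.996, lowest for non-transgenic replicate 1. Each array matched its label by the targeted gene: the mean log2 intensity of Bnc1 was 11.57 ± 0.15 (SD, n = 4) in controls, against 3.85 ± 0.21 (SD, n = 6) with the transgene. That is a decrease of at least 95.1-fold (limma adjusted p = 2.65e-11). All 10 oocyte markers were above the level, and 2 of them were lower in transgenic samples, Figla by -0.54 and Dppa3 by -0.21 on the log2 scale (limma adjusted p = 0.0153 and 0.0265). Figla kept its call in 8 and Dppa3 in 5 of 10 fits that left out 1 sample. Of the granulosa and cumulus markers on the array 7 of 13 were above it in any array, with summed intensities of 1568 to 1675 in non-transgenic and 1507 to 2566 in transgenic samples. Amh, Inhba, Amhr2, Hsd3b1, Star and Has2 were below the level throughout. Fshr and Cyp11a1 were higher in transgenic samples by 1.24 and 1.57 on the log2 scale, the latter not without non-transgenic replicate 8 (adjusted p = 0.0682). Without a call, Inha changed by 0.59, Gja1 by 0.55, Kitl by 0.06 and Nr5a2, the brightest of these markers, by -0.07. Stroma and vessel markers (3 of 8 above the level) summed to 160.1 to 205.8 and 179.8 to 243.2. Dcn was higher by 1.11 without overlap (limma adjusted p = 0.00279), and Acta2 was lower by -0.50 (limma adjusted p = 0.0443), called in 3 of 10 fits that left out 1 sample. Blood and immune markers (1 of 6, Laptm5) summed to 302.0 to 858.2 and 624.1 to 1274, with Laptm5 higher by 1.06 (limma adjusted p = 0.0217). Laptm5 missed the threshold without non-transgenic replicate 2, 7 or 8 (adjusted p from 0.0571 to 0.0691). The part of these markers' cells in the results below was not tested.

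Histone lysine methylation marks active and silent chromatin. Methylation of lysine 4 of histone H3 (H3K4) marks promoters and enhancers, that of H3K36 and H3K79 marks transcribed genes, and that of H3K9 and H4K20 marks silent chromatin. Most methyltransferases act through a SET domain, while DOT1L has a catalytic fold of another kind. Demethylases are amine oxidases (KDM1) or iron-dependent JmjC enzymes (the other KDM families). The growing oocyte lays down these marks before it falls silent, and several of these enzymes are needed in the mother for her embryos to develop.

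The promoters are shown first for the members whose brightest probe sets changed most in each direction among those with a RefSeq sequence. The starts are those of RefSeq, and the start used in these oocytes was not measured. Of the 58 genes 43 were matched, and 12 of the 16 that passed the test. Each line gives the 250 bases before the start, in assembly GRCm38.p6 and read on the strand of the gene, with CG dinucleotides in capitals. Setdb2 was higher in transgenic oocytes, and Smyd2 and Kmt2c were lower. Kdm7a was higher by its brightest probe set, while another of its probe sets was lower.
Kdm7a, chr6:39206774-39207023, minus strand: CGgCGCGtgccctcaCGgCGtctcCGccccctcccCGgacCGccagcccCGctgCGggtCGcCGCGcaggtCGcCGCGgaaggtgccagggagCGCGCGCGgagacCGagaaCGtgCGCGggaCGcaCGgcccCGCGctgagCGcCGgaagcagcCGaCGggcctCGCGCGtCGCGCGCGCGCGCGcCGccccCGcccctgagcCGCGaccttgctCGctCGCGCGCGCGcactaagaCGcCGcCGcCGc
Setdb2, chr14:59440881-59441130, minus strand: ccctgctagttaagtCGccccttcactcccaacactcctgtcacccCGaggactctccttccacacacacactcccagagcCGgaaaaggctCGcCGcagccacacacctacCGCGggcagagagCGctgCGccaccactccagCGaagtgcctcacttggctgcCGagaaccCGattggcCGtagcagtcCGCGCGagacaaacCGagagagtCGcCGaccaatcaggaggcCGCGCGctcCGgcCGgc
Smyd2, chr1:189922292-189922541, minus strand: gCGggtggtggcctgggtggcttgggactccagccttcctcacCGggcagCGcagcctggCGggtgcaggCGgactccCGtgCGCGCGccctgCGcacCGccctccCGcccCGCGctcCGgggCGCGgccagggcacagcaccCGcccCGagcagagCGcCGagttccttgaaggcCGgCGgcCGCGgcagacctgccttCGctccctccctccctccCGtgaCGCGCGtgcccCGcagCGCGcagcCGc
Kmt2c, chr5:25498784-25499033, minus strand: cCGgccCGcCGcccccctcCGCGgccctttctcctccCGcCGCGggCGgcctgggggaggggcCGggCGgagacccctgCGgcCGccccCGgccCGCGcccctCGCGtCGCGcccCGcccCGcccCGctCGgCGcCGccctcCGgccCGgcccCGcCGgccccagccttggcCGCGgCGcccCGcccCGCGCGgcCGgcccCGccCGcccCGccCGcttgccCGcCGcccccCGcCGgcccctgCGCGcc

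These windows held 56 CG dinucleotides for Kdm7a, 24 for Setdb2, 34 for Smyd2 and 48 for Kmt2c. Over the 58 promoter entries of the 43 genes the median was 20.5 in 250 bases, and 24 over the 46 entries of tested members. It was 15 for 11054 entries of tested genes and 6 for 32851 entries of all genes. Entries of genes that rose had a median of 19.5 (6 entries) and of genes that fell 26 (7 entries). The motif TATAAA, on either strand, was in 3 of the 58 entries (5.17%) and in 1 of the 46 of tested members (2.17%). It was in 6.91% of the entries of tested genes, in 12.4% of all entries and in no entry of a member that passed the test. CCAAT, on either strand, was in 26 of the 58 (44.8%) and in 21 of the 46 of tested members (45.7%). It was in 35.4% of the entries of tested genes and in 33.8% of all entries. The Setdb2 window holds CCAAT on both strands. A match is a description of the letters and not a binding site.

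Of the 45 genes tested, 16 passed (35.6%), 8 higher and 8 lower in transgenic oocytes. Among all 10590 genes tested 37.2% passed, 18.9% higher and 18.3% lower, so the share for these enzymes lay near the background and is no result about them as a class. Their median log2 change was -0.08, against -0.03 for all genes. With each array centred on its median, 5 were higher and 9 lower, and over all genes 1772 were higher and 2441 lower, against 1998 and 1942 as deposited. Groups did not overlap for 11 of the 45 (24.4%), against 28.0% of all tested genes, and all 11 passed. An unadjusted limma p below 0.05 was found for 19 of the 45, against 4869 of all 10590 genes tested. The changes were mostly small. Called and at least 1.5-fold were 5 of the 45, against 19.1% of all tested genes, and called and at least 2-fold were 2, against 8.98%. These were Nsd2 and Kdm7a, the latter by its brightest probe set only, since another Kdm7a probe set was called 2.01-fold lower. The other 29 genes changed by -0.48 to 0.31 on the log2 scale without passing. Counts of single lists below rest on few genes and are to be read beside the shares over all genes given here. Differences below are log2 intensities, transgenic minus non-transgenic, from limma with Benjamini-Hochberg adjustment over all genes. The exact permutation test of single genes over 210 splits was two-sided and cannot give a p below 0.00476.

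**Figure D1:**
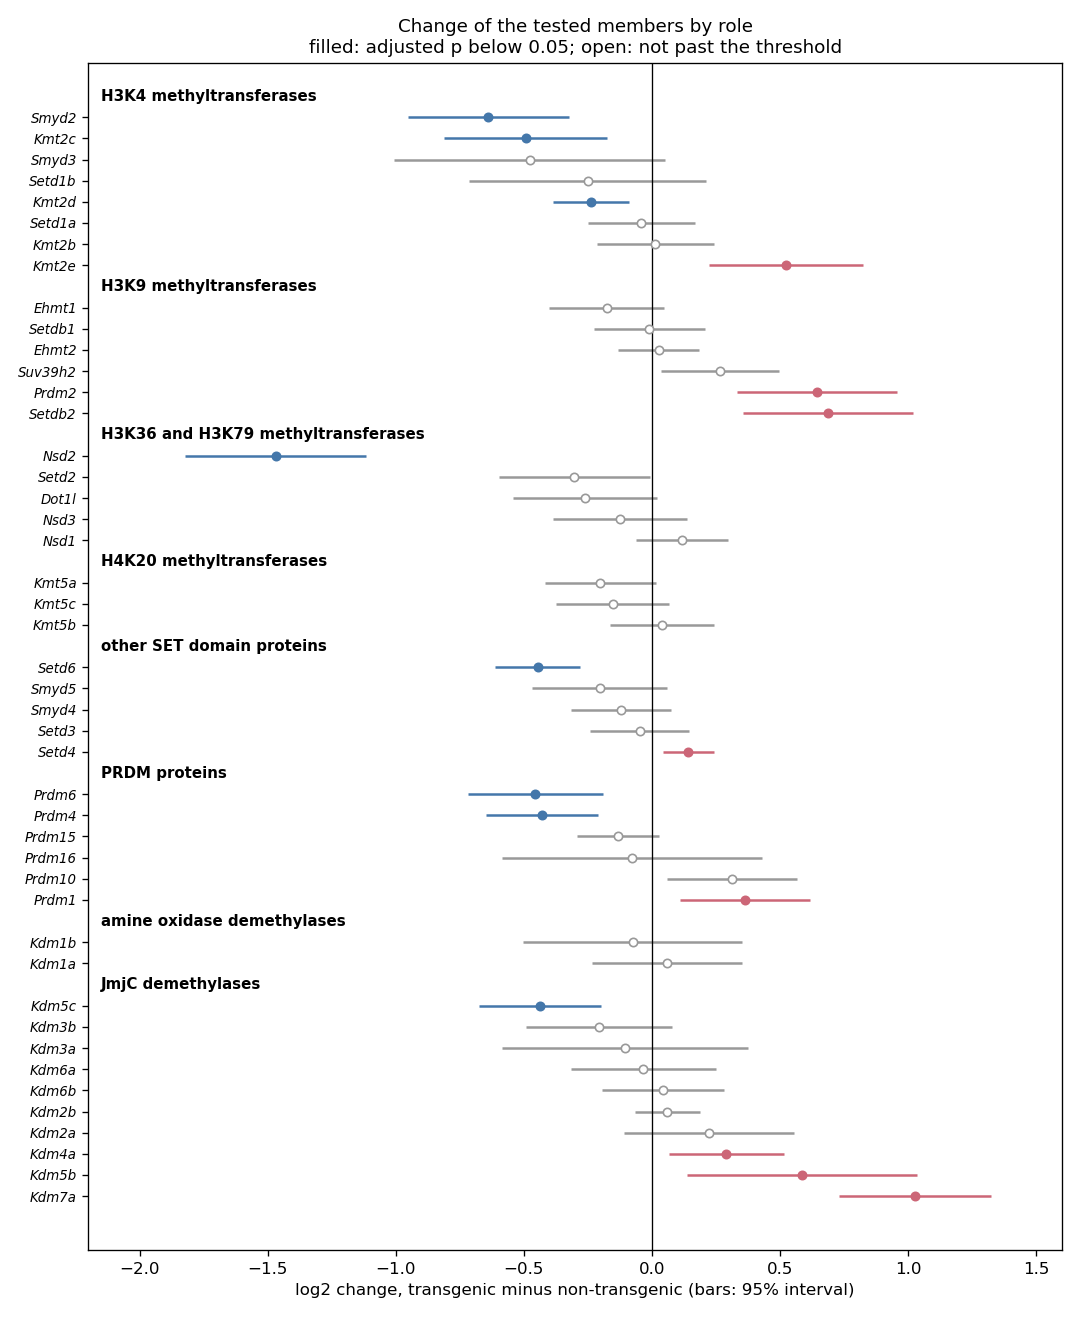
Log2 change of the 45 tested genes (transgenic minus non-transgenic, 6 against 4 arrays) with its 95% interval from limma, arranged by the lists used in the text. Filled points passed an adjusted p of 0.05 (red higher, blue lower), open points did not. Nsd2 lies farthest to the left at -1.47 and Kdm7a, by its brightest probe set, farthest to the right at 1.03.

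The H3K36 methyltransferases held the largest decrease. Nsd2 (also called Whsc1 or MMSET) adds dimethyl groups to H3K36. Its log2 intensity was 8.30, 8.64, 8.32 and 8.09 in non-transgenic replicates 1, 2, 7 and 8. It was 7.21, 6.85, 6.42, 7.08, 6.66 and 6.99 in transgenic replicates 4, 5, 6, 11, 12 and 13. Every transgenic sample was thus below every non-transgenic one. The difference was -1.47 (SE 0.16, 2.77-fold, limma adjusted p = 4e-05, exact permutation p = 0.00476). A second, dimmer probe set of Nsd2 went from 6.80 ± 0.06 (SD, n = 4) to 6.02 ± 0.09 (SD, n = 6), a change of -0.78 without overlap. Nsd2 passed in all 10 fits that left out 1 sample.

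The relatives of Nsd2 and the other enzymes of this list did not pass. Nsd1, required for H3K36 dimethylation between genes, was at 11.47 ± 0.13 and 11.59 ± 0.12 (limma adjusted p = 0.29, 95% interval of the change -0.06 to 0.30). A dim Nsd1 probe set, above the level in 4 of 4 non-transgenic and 3 of 6 transgenic samples, changed by -0.70 (limma adjusted p = 0.00793 over all probe sets). Nsd3 changed by -0.13. Setd2, the enzyme of H3K36 trimethylation that oocytes need for their DNA methylation pattern, was at 8.91 ± 0.24 and 8.60 ± 0.20 (limma adjusted p = 0.0979, interval -0.60 to -0.01). It passed without transgenic replicate 6 (adjusted p = 0.0351) and with array weights (adjusted p = 0.039). Dot1l, the H3K79 methyltransferase, changed by -0.26 (limma adjusted p = 0.131).

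Among H3K4 methyltransferases 1 of 8 tested rose and 3 fell. Kmt2c and Kmt2d encode the enzymes of enhancer monomethylation, MLL3 and MLL4. Kmt2c was at 11.56, 10.87, 11.05 and 10.81 in non-transgenic samples. In transgenic samples it was at 10.67, 10.65, 10.79, 10.32, 10.46 and 10.59. The groups did not overlap, although transgenic replicate 6 lay only just below non-transgenic replicate 8. The difference was -0.49 (SE 0.15, limma adjusted p = 0.0205), and the 3 other Kmt2c probe sets also pointed down, by 0.65 to 0.20, of which the one at -0.65 passed. Kmt2d changed by -0.24 (SE 0.07, limma adjusted p = 0.0172), from 12.16 ± 0.13 to 11.92 ± 0.07, and its groups overlapped. Its dim second probe set was at 5.48 and 5.54, and the mean of both changed by -0.09 without a call (limma adjusted p = 0.453).

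Kmt2e, which encodes MLL5, a SET protein without clear methyltransferase activity, was the member of this list that rose. Its log2 intensity was 7.22, 7.06, 7.30 and 7.54 in non-transgenic samples. It was 7.69, 7.77, 7.76, 7.58, 8.24 and 7.78 in transgenic samples, all above the control samples. The difference was 0.52 (SE 0.14, limma adjusted p = 0.0118). Its 3 other tested probe sets were below the level in every non-transgenic sample, so they entered the test only through transgenic arrays and add no independent support. Their lower bounds were 1.88-fold for one and 1.10-fold for the others, with 6, 5 and 4 of 6 transgenic samples above the level.

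Smyd2, a SET and MYND protein that methylates histones and also p53, fell. It was at 8.27, 8.47, 8.37 and 8.22 in non-transgenic samples and at 7.50, 7.60, 7.75, 8.19, 7.71 and 7.40 in transgenic samples. Transgenic replicate 11 almost reached the lowest control. The difference was -0.64 (SE 0.14, limma adjusted p = 0.00511, exact permutation p = 0.0143). Its relative Smyd3 changed by -0.48 with overlapping groups (limma adjusted p = 0.143), and passed without transgenic replicate 5 (adjusted p = 0.0185). The mean of its probe sets changed by -0.37 and passed with all samples (adjusted p = 0.00324). Kmt2b, the methyltransferase of H3K4 trimethylation in oocytes, was at 9.65 ± 0.13 (SD, n = 4) and 9.66 ± 0.17 (SD, n = 6), with a 95% interval of the change from -0.21 to 0.24. Setd1a changed by -0.04. Setd1b had no single direction: its brighter probe set changed by -0.25 (limma adjusted p = 0.383) and its dimmer one by 0.72 (limma adjusted p = 0.0338 over all probe sets). The former was -0.07 without non-transgenic replicate 8 and -0.12 without transgenic replicate 5, and the mean of both probe sets changed by 0.23 (limma adjusted p = 0.357).

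The H3K9 methyltransferases gave 2 higher and 0 lower in limma of 6 tested, with 3 at an unadjusted p below 0.05. Of all 10590 genes tested 4869 had such a p, so 3 of 6 is no result about this list. Setdb2, related to the silencing enzyme SETDB1, was at 9.54, 9.93, 10.08 and 10.34 in non-transgenic samples. In transgenic samples it was at 10.46, 10.40, 10.86, 10.82, 10.65 and 10.76. All 6 were above the 4 controls, which were themselves spread, with replicate 1 lowest. The difference was 0.69 (SE 0.15, 1.61-fold, limma adjusted p = 0.00458). Prdm2, also called RIZ1, joins a PR domain of the SET kind to zinc fingers. It was at 12.23, 12.04, 12.66 and 12.36 in non-transgenic samples and at 13.02, 12.48, 13.10, 13.11, 13.11 and 12.98 in transgenic samples. Transgenic replicate 5 lay within the range of the controls. The difference was 0.64 (SE 0.14, limma adjusted p = 0.00469). A second bright Prdm2 probe set changed by 0.57 and a dim one by -0.06.

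The better known enzymes of H3K9 methylation did not pass. Setdb1, the enzyme that KRAB zinc finger proteins recruit and that oocytes need for meiosis, was at 11.09 ± 0.19 and 11.08 ± 0.13 (interval of the change -0.23 to 0.20). Suv39h2, the trimethylase of pericentric chromatin known from germ cells, was at 10.57 ± 0.18 and 10.84 ± 0.16 (limma adjusted p = 0.0703). Its 3 probe sets changed by 0.26, 0.22 and 0.23, and it passed without non-transgenic replicate 1 (adjusted p = 0.0247). With the replicate number range (1 to 6 or 7 to 13) as a covariate it also passed (adjusted p = 0.048), as it did with array weights (0.0402) and with the mean of its probe sets (0.0481). Ehmt1 (GLP) changed by -0.18. Ehmt2 (G9a) was just inside the filter, with a mean of 5.10 and 9 of 10 arrays above the level, and changed by 0.03. Of the 3 genes listed as H4K20 methyltransferases (Kmt5a, Kmt5b and Kmt5c) 0 passed in limma, and 0 had an unadjusted p below 0.05. Kmt5a (SET8), the monomethylase, changed by -0.20 (interval -0.42 to 0.01), Kmt5b by 0.04 and Kmt5c by -0.15. With median centring Kmt5a passed as lower (-0.26, adjusted p = 0.0442).

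**Figure D2:**
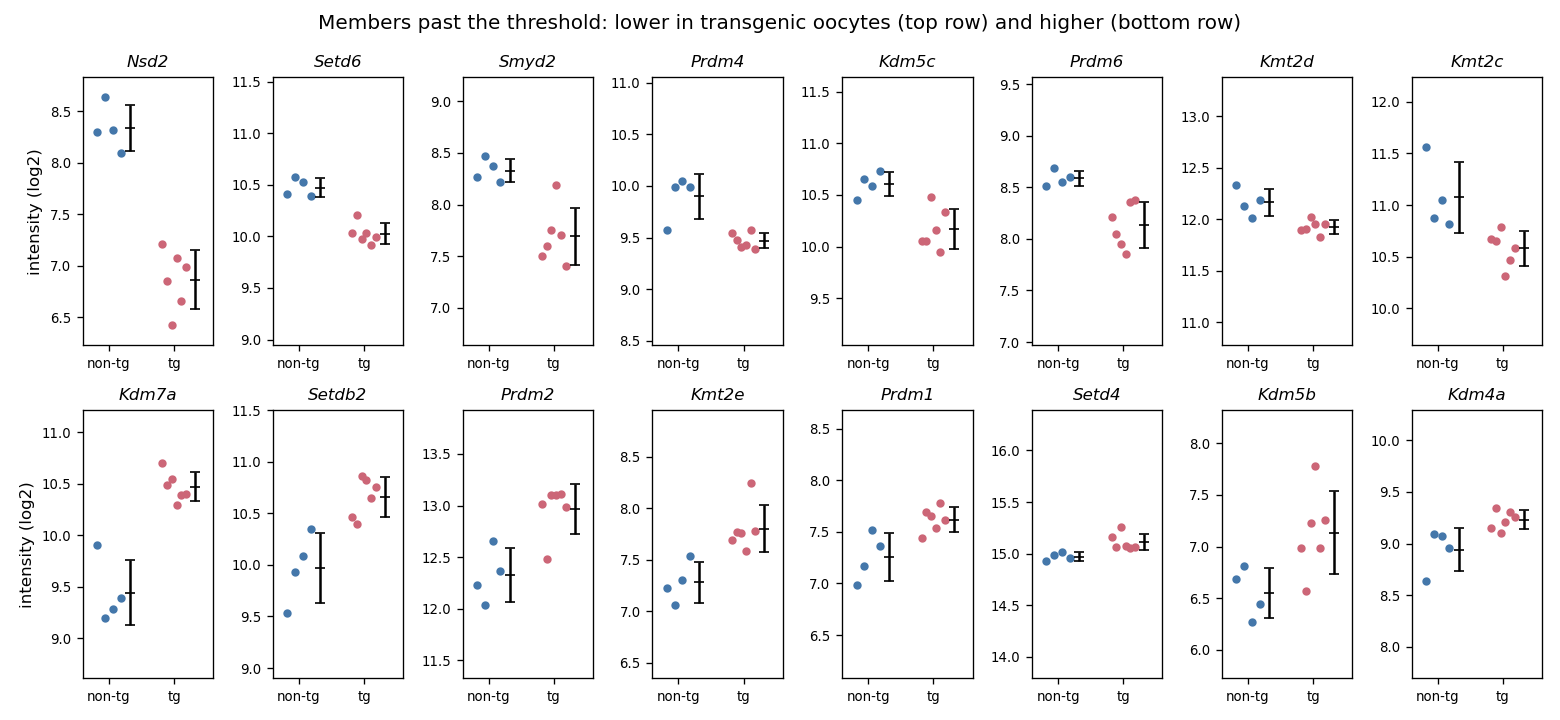
Log2 intensity of each array for the 16 genes that passed, with 4 non-transgenic (blue) and 6 transgenic (red) points a panel and mean ± SD in black. All panels have the same span of log2 units but start at different levels. Nsd2 shows the widest gap, from 8.09 in the lowest control to 7.21 in the highest transgenic sample, and Setd4 one of the narrowest, from 15.02 to 15.05.

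The other SET domain proteins of the families gave 1 higher and 1 lower of 5 tested. Setd6, which methylates the NF-kappaB subunit RelA, had tight replicates. It was at 10.41, 10.57, 10.52 and 10.39 in non-transgenic and at 10.03, 10.21, 9.98, 10.03, 9.92 and 9.996 in transgenic samples. The groups did not overlap, and the difference was -0.45 (SE 0.08, 1.36-fold, limma adjusted p = 0.000872). A second Setd6 probe set gave -0.45 as well, from 9.47 to 9.02. Setd4 was at 14.97 ± 0.04 (SD, n = 4) and 15.11 ± 0.08 (SD, n = 6), a change of 0.14 (limma adjusted p = 0.0297) that was small but without overlap. It lost its call without non-transgenic replicate 1, 2 or 8 or transgenic replicate 4 (adjusted p from 0.055 to 0.0735), with median centring (adjusted p = 0.209) and without a trend in eBayes (adjusted p = 0.113). The other tested Setd4 probe sets changed by 0.10 and 0.19 without a call (limma adjusted p = 0.136 and 0.119 over all probe sets). The mean of the Setd4 probe sets did not pass (limma adjusted p = 0.0579). Setd3, the histidine methyltransferase of actin, was at 8.98 and 8.93. Smyd4 and Smyd5 changed by -0.12 and -0.21 without passing, although the mean of the Smyd4 probe sets did (-0.18, adjusted p = 0.0458).

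The remaining PRDM genes encode zinc finger factors with a PR domain, many of which act mainly by binding DNA. Of 6 tested 1 rose and 2 fell. Prdm4 was at 9.57, 9.99, 10.04 and 9.99 in non-transgenic and at 9.54, 9.48, 9.41, 9.43, 9.57 and 9.39 in transgenic samples. Non-transgenic replicate 1 stood only just above the highest transgenic sample. The difference was -0.43 (SE 0.10, limma adjusted p = 0.00612). Prdm6, a repressor known from smooth muscle, changed by -0.46 (SE 0.12, limma adjusted p = 0.0115) without overlap between groups. Prdm1 (BLIMP1), the factor that sets germ cell fate in the embryo, changed by 0.36, from 7.26 ± 0.23 to 7.62 ± 0.12 (limma adjusted p = 0.0297), with overlap. It lost its call without non-transgenic replicate 1 or 2 or transgenic replicate 5, 12 or 13 (adjusted p from 0.0523 to 0.0796), and with quantile normalization (0.0501). Prdm10 changed by 0.31 (limma adjusted p = 0.053). It passed without non-transgenic replicate 7 or transgenic replicate 12 or 13 (adjusted p from 0.023 to 0.0397) and with the mean of its probe sets (0.0111), and its dimmer probe set changed by 0.54 (limma adjusted p = 0.0344 over all probe sets). Prdm15 changed by -0.13, and passed without non-transgenic replicate 7 (adjusted p = 0.0433), and Prdm16 changed by -0.08.

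Of the amine oxidase demethylases 0 of 2 passed in limma, with 0 at an unadjusted p below 0.05. Kdm1b (LSD2), which removes H3K4 methylation so that maternal imprints can be set, was at 12.05, 12.21, 12.35 and 12.90 in non-transgenic samples. It was at 12.08, 11.84, 12.26, 12.27, 12.76 and 12.59 in transgenic samples. The groups overlapped over most of their range, and the interval of the change was -0.50 to 0.35. Kdm1a (LSD1), needed from the mother at fertilisation, was at 10.47 ± 0.29 and 10.52 ± 0.17 (interval -0.23 to 0.35). Its partners in the CoREST complex did not pass either, with 0 of 7 tested in limma and 0 at an unadjusted p below 0.05.

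Of 10 tested JmjC demethylases 3 were called higher and 1 lower. The H3K4 demethylases of the KDM5 family went in both directions. Kdm5c, on the X chromosome, was at 10.45, 10.65, 10.59 and 10.73 in non-transgenic and at 10.06, 10.05, 10.48, 10.16, 9.95 and 10.33 in transgenic samples. Only transgenic replicate 6 reached into the control range. The difference was -0.44 (SE 0.11, limma adjusted p = 0.00884). The next brightest Kdm5c probe set changed by -0.38, and 4 others near the level by -0.22 to 0.01. Kdm5b, a broad H3K4 demethylase of the early embryo, was at 6.68, 6.81, 6.27 and 6.45 in non-transgenic samples. It was at 6.99, 6.57, 7.23, 7.78, 6.98 and 7.26 in transgenic samples, of which replicate 5 lay among the controls. Its difference of 0.58 (SE 0.20) passed narrowly (limma adjusted p = 0.0433). Of the 10 fits that left out 1 sample, its call held in those without non-transgenic replicate 2 and without transgenic replicate 5, and in the other 8 the adjusted p was 0.0527 to 0.121. It was also lost with median centring (0.0684) and quantile normalization (0.0943).

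Kdm4a, which removes methyl groups from H3K9 and H3K36 and is needed in oocytes for embryo development, was at 8.94 ± 0.21 (SD, n = 4) and 9.23 ± 0.09 (SD, n = 6). The difference of 0.29 (SE 0.10, limma adjusted p = 0.0453) had no overlap between groups, by 9.10 against 9.10 at the nearest samples. It was lost without non-transgenic replicate 1 or 8 or transgenic replicate 4, 5, 11, 12 or 13 (adjusted p from 0.0577 to 0.108), and with median centring (0.0673). Kdm2a, Kdm2b, Kdm3a, Kdm3b, Kdm6a and Kdm6b did not pass. Kdm6a (UTX) and Kdm6b (JMJD3), which remove methyl groups from H3K27, were at 12.30 and 12.27 and at 11.30 and 11.34. A second Kdm6a probe set changed by 0.29 (limma adjusted p = 0.0931 over all probe sets). Kdm2b, which brings a Polycomb complex to CpG islands, was at 13.91 and 13.97, while its second probe set changed by 0.22 (limma adjusted p = 0.0352 over all probe sets).

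Kdm7a, a demethylase of H3K9 and H3K27, had the largest called increase, but its probe sets disagreed. The brightest was at 9.90, 9.20, 9.29 and 9.39 in non-transgenic and at 10.70, 10.49, 10.55, 10.29, 10.39 and 10.40 in transgenic samples, higher in 6 of 6. Its difference was 1.03 (SE 0.13, 2.04-fold, limma adjusted p = 0.000146). The next went from 9.45 ± 0.22 to 9.97 ± 0.15, a change of 0.52 (limma adjusted p = 0.00567 over all probe sets). The third was at 9.13, 8.58, 8.95 and 9.21 in non-transgenic and at 7.91, 7.64, 7.31, 7.54, 8.79 and 8.56 in transgenic samples. It was lower by -1.01 (SE 0.28, limma adjusted p = 0.0187 over all probe sets), with transgenic replicate 12 reaching the control range. The mean of the 3 probe sets changed by 0.18 (limma adjusted p = 0.295), so no single direction can be given for Kdm7a mRNA as a whole. Where the probe sets lie on the transcripts was not analysed here.

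**Figure D3:**
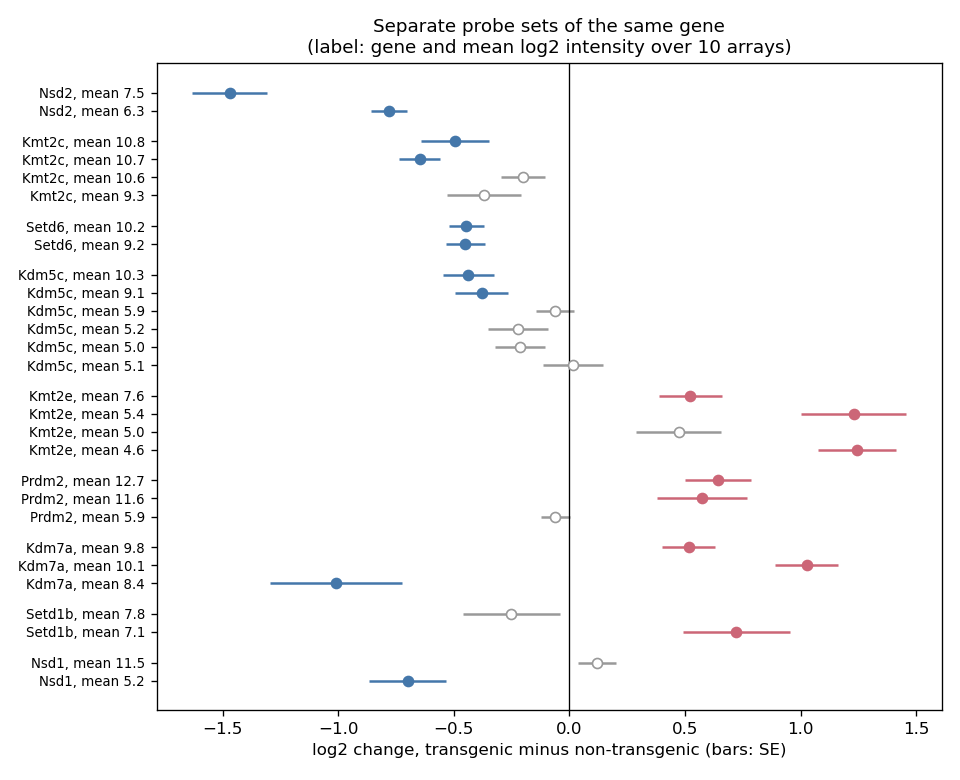
Log2 change with SE for each tested probe set of 9 genes, from the fit on all 18582 probe sets, labelled by gene and mean log2 intensity. Filled points passed (red higher, blue lower). The probe sets of Nsd2, Setd6 and Kmt2c lie on one side, while Kdm7a has 2 at 0.52 and 1.03 and 1 at -1.01.

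In the fit on all probe sets 33.2% passed. Of 23 genes of the families with more than 1 tested probe set, 15 had all of them on one side of 0. Only Kdm7a had called probe sets in both directions, 1 of 23, against 58 of 4036 genes (1.44%) in the whole table.

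The 13 genes that were not tested also say where signal was low. Kdm4b, Kdm4c, Kdm4d, Kdm5d, Kmt2a, Prdm8 and Setd7 were below the level in all 10 arrays. Kdm5a, Prdm14, Setd5 and Smyd1 were above it in 1 array, Prdm11 in 2 and Prdm9 in 3. Prdm9, the methyltransferase that places meiotic recombination sites early in oogenesis, had a mean of 4.92 and lay just outside the filter. Setd5 had a mean of 4.87 but was above the level in only 1 array. Smyd1 is a muscle protein and Kdm5d is on the Y chromosome. Suv39h1 and Ash1l were not analysed here.

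Partners and readers of these enzymes were described from lists, with 74 genes named and 61 tested. Of these 10 rose and 10 fell (32.8% called, against 37.2% of all tested genes). That share lay near the background and is no result about these genes as a class. Their median log2 change was -0.12. Each of these genes was followed by its brightest probe set alone, and its other probe sets were not examined here. With median centring 9 were higher and 14 lower, beside the shift of all genes toward lower given above. In the COMPASS complexes, which carry the H3K4 methyltransferases, 2 of 12 rose and 1 fell. The shared subunits Ash2l and Dpy30 rose by 0.64 and 0.31 (limma adjusted p = 0.00019 and 0.007), and Men1, which encodes menin, changed by -0.53 (limma adjusted p = 0.00189). Wdr5 and Rbbp5, the other shared subunits, were at 11.71 and 11.59 and at 9.40 and 9.49. Among readers of H3K9 methylation and partners of SETDB1, 3 of 10 rose and 2 fell. Zfp644, a partner of G9a and GLP, rose by 1.20. Of the HUSH complex, Mphosph8 rose by 0.21 and Pphln1 changed by -0.34. Uhrf1, which couples H3K9 methylation to DNA methylation, rose by 0.14, but not without non-transgenic replicate 8 (adjusted p = 0.0691) nor under other scaling (adjusted p up to 0.239). Cbx1 (HP1 beta) changed by -0.47, and missed the threshold when non-transgenic replicate 1 or 2 or transgenic replicate 6 or 13 was left out (adjusted p from 0.0508 to 0.0783).

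Among JmjC proteins outside the KDM names 1 of 8 rose and 2 fell. Jmjd1c, a relative of Kdm3a, rose by 1.42, from 7.69 ± 0.23 (SD, n = 4) to 9.11 ± 0.12 (SD, n = 6) (limma adjusted p = 3.58e-06). Riox2, an oxygenase of the ribosomal protein RPL27A, changed by -1.07 and Hif1an, which hydroxylates HIF, by -0.75. In a list of methyl-lysine readers and their partners, not all known for H3K4 or H3K36, 3 of 18 rose and 4 fell. L3mbtl3 rose by 1.58, L3mbtl2 by 0.75 and Brpf3 by 0.58. Dnmt3b changed by -0.59 and Ing5 by -0.43. Dnmt3a, the DNA methyltransferase that reads H3K36 methylation in oocytes, changed by -0.35 (limma adjusted p = 0.0337). Dropping non-transgenic replicate 1 or 8 or transgenic replicate 4 or 5 ended that call (adjusted p from 0.0579 to 0.0924). Mrgbp changed by -0.31, a call that held in only 2 of the 10 fits without 1 sample (adjusted p in the others from 0.0507 to 0.0765). In the list for the supply of the methyl donor, which also holds relatives of its enzymes, 1 of 6 rose and 1 fell. Ahcy, which clears the product that inhibits methyltransferases, rose by 0.96, from 10.12 ± 0.24 to 11.08 ± 0.10 (limma adjusted p = 4.2e-05). Ahcyl2, its relative, changed by -0.36, which missed the threshold when non-transgenic replicate 1, 2 or 7 or transgenic replicate 5 or 12 was left out (adjusted p from 0.052 to 0.0805).

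Signal at the 3' and 5' ends of control transcripts was compared as a log2 difference, 3' minus 5'. RNA length itself was not measured. The difference between the 3' and 5' probe sets of Gapdh was 3.72 to 4.34 in non-transgenic and 3.63 to 4.12 in transgenic arrays. With this difference as a covariate 10 of the 16 calls were kept, 5 higher and 5 lower. The adjusted p was then 0.119 for Kmt2c, 0.131 for Kmt2d, 0.0807 for Kdm5c, 0.0828 for Prdm1, 0.114 for Kdm5b and 0.289 for Kdm4a. For Actb the difference was 3.44 to 4.01 and 3.40 to 5.13, highest in transgenic replicate 6, and only Kdm5b was lost with it as a covariate (adjusted p = 0.0686).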

How the data were processed

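Each array's deposited values are linear intensities of its probe sets, computed with GCRMA per the submitters' processing notes, which name no version. All were above 0, and their log2 was used without new normalization. GCRMA pulls dim probe sets toward a floor, which makes their folds uncertain, and the number of arrays limits precision. Of 45101 probe sets 34958 had 1 gene in the platform annotation. Symbols were updated by gene number through RefSeq (GRCm38.p6).

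Groups were compared with limma 3.58.1 (lmFit, eBayes with a trend) in R 4.3.3 over 10590 genes, with p-values adjusted by Benjamini-Hochberg and a threshold of 0.05. The filter level was log2 5 in at least 4 arrays. Folds of probe sets below it in every sample of a group are lower bounds against that level. The fit was tested on simulated data with independent noise and far fewer changed genes than were called here. That test therefore says nothing about the reliability of single calls in these data. The families and gene lists were chosen with earlier results of these data known. Named genes were both directions of the families past the threshold, a fixed set known from oocytes, and in each list up to 3 genes a direction. A few others were chosen after their values were seen. Protein features were not analysed here. Alternatives varied the filter, scaling, log offset, variance model, array weights, probe set choice, replicate number range, samples and thresholds. Figures used matplotlib 3.10.9.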

Additional observations from a re-analysis of the deposited data

Results flagged for a closer look

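Samples were checked for single values far from the others of their group in 30 genes, 60 groups in all, where chance flags about 1 in 20, and 6 were found. Prdm2 was at log2 12.48 in transgenic replicate 5, with the other transgenic samples at 12.98 to 13.11. Kmt2e was at 8.24 in transgenic replicate 12, with the others at 7.58 to 7.78. Prdm4 was at 9.57 in non-transgenic replicate 1, with the others at 9.99 to 10.04. Setd1b was at 8.50 in non-transgenic replicate 8, with the others at 7.73 to 7.86. Ehmt2 was at 5.26 in transgenic replicate 11, with the others at 5.07 to 5.09. Smyd4 was at 6.06 in non-transgenic replicate 1, with the others at 5.64 to 5.71. Prdm2, Kmt2e and Prdm4 kept their calls without these samples.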

How the results depend on the processing

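No paired analysis was possible because the groups share no replicate number. Leaving out each sample gave 5 to 8 members higher and 8 to 9 lower, and 1778 to 1954 of all genes higher and 1564 to 1913 lower. The 12 members with the smallest p kept their calls in all 10 of these fits. Among samples numbered 1 to 6, 3 members were higher and 2 lower (1207 and 706 of all genes), and among those numbered 7 to 13, 4 and 5 (1241 and 1023). The labels call neither range a batch, and both hold fewer samples. At an adjusted p of 0.01, 3 members were higher and 5 lower. Of all genes 1102 were lower at that limit, while the number higher is not given here. At 1.5-fold or more, 3 and 2 members remained past both limits (1231 and 793 of all genes). Median centring gave 5 members higher and 9 lower (1772 and 2441 of all genes). The Gapdh covariate gave 5 and 5 (1616 and 1565 of all genes). Leaving out non-transgenic 1 and transgenic 6, the arrays least like their groups, gave 5 and 9 (1812 and 1829 of all genes). The Gapdh and Actb covariates and this omission were chosen after seeing the data. Among 8 genes whose tested probe sets differ in sign, other probe sets reversed the sign of Kdm7a (-1.01), Setd1b (0.72), Kdm5c (0.0138), Kmt2d (0.0603) and Prdm2 (-0.0612), the last 3 on dim probe sets without a call. The others were Nsd1 (0.12 and, called, -0.70), Kdm6a (-0.03 and 0.29) and Nsd3 (-0.13 and 0.06). The cause was not tested.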
